A study of Rattus norvegicus with 6 samples.

Results

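The potassium channel subunits measured here are the genes whose symbol starts with Kcn, 91 of the 16876 symbols in the count table. Membership follows from the symbol, and the members were sorted by family name into voltage-gated (51 symbols), inward rectifier (15), two-pore (13) and calcium-activated (9) channels, with 3 symbols outside these classes. The 6 RNA libraries came from rat (Rattus norvegicus) cells labelled as microglia in primary culture, which according to the labels had been kept for 24 h with IR-813, a near-infrared dye, or with PSNPs, polystyrene nanoplastics, with 3 libraries in each group. The cells had been shaken loose from mixed co-cultures grown with fetal bovine serum. No dose, strain, sex or age is given in the labels, and none of the 6 libraries carries an untreated label, so "higher" and "lower" mean with PSNPs relative to IR-813. The deposited tables name the IR-813 columns con and the PSNPs columns NPS. The labels were followed, but what con stands for is not stated, so the condition that every fold change is relative to is in doubt to that extent. The labels do not say whether replicates came from separate cultures, so the p-values measure a spread between libraries that may be technical.

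Potassium channels set the resting potential of a cell and end its electrical activity. Voltage-gated channels open on depolarisation, calcium-activated channels open when calcium rises or, in the large-conductance type, when calcium rises and the membrane depolarises together, inward rectifiers hold the membrane near the potassium potential, and two-pore channels carry background current. Neurons use most families, astrocytes rely on inward rectifiers and two-pore channels to take up potassium, and microglia are known for a two-pore channel (Kcnk13), inward rectifiers (Kcnj2), voltage-gated Kcna3 and the calcium-activated Kcnn4.

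The libraries held between 19166605 and 22553507 counts, of which Kcn symbols took between 0.0333% and 0.052%. PSNPs replicate 3 had the lowest share and stood apart from PSNPs replicates 1 and 2 (correlation of log CPM across genes 0.974 and 0.971, against 0.995 between those 2). Markers of astrocytes and of the oligodendrocyte lineage exceeded those of microglia in every library. Summed over lists of 10 genes each, astrocyte markers ranged from 7570 to 9780 CPM (counts scaled to the same library size) with IR-813 and from 9520 to 10800 CPM with PSNPs, while microglia markers ranged from 954 to 1280 and from 561 to 736 CPM. The 11 oligodendrocyte-lineage markers ranged from 6530 to 7610 and from 3490 to 3980 CPM, and the 15 neuron markers from 459 to 478 and from 181 to 215 CPM. Of the neuron markers, 10 of 13 tested were lower and 0 higher, although Slc17a7, which defines cortical excitatory neurons, was near 0 in both groups (0.0149 ± 0.0258 and 0.0306 ± 0.0531 CPM, SD, n = 3 each). All 11 oligodendrocyte-lineage markers and 8 of 10 microglia markers were lower, 5 astrocyte markers were higher and 1 lower of 10, and 3 of 5 tested fibroblast, pericyte and endothelial markers were lower, with Col1a2 at 0 in every library. For all tested genes the shares were 20.1% lower and 20.9% higher. Snap25, called lower among the neuron markers, was above the filter on low counts with IR-813 alone, so its direction is no independent finding. The 8 infiltrating myeloid and lymphoid markers in the table, 4 of them at 0 throughout, summed to at most 0.212 CPM. In bulk RNA, fewer cells of a type and less of a transcript per cell cannot be told apart, and the part that these shifts play in the channel results was not tested.

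Most channel genes that differed were lower with PSNPs. Of the 91 members, 58 passed the filter on low counts and were tested, and 27 of them were lower and 6 higher by edgeR's quasi-likelihood test with a Benjamini-Hochberg adjusted p under 0.05 over all genes. Among all 11679 tested genes 20.1% were lower and 20.9% higher, 41.0% in all. The median log2 fold change was −0.65 over the tested members and −0.01 over all tested genes. More than 2-fold decreases were found for 23 members and more than 2-fold increases for 4, against 8.81% and 4.67% of all tested genes. The filter was passed through the IR-813 libraries alone by 10 members and through the PSNPs libraries alone by 2. These were tested because of their level in that group, so their direction is no independent finding, and each such member is marked where it is described. Among the 46 that passed through both groups, 19 were lower and 5 higher. The 3 PSNPs libraries lay below all IR-813 libraries for 33 tested members and above them for 7 (31.4% and 30.0% of all tested genes). For comparison, the voltage-gated calcium and sodium channel subunits, 31 tested of 40, had 16 lower and 5 higher and a median of −0.75. These subunits were not split by the libraries through which they passed the filter. They therefore stand beside all 58 tested members and not beside the 46. The difference between these subunits and the potassium channels was not tested. Leaving out 1 library at a time gave between 20 and 31 lower and between 4 and 9 higher members, with the fewest lower calls without IR-813 replicate 2 and the most without PSNPs replicate 3. Without IR-813 replicate 2 or 3 the higher members were 4, and Kcnn3 and Kcnj8 were the 2 that no longer passed.

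**Figure D1:**
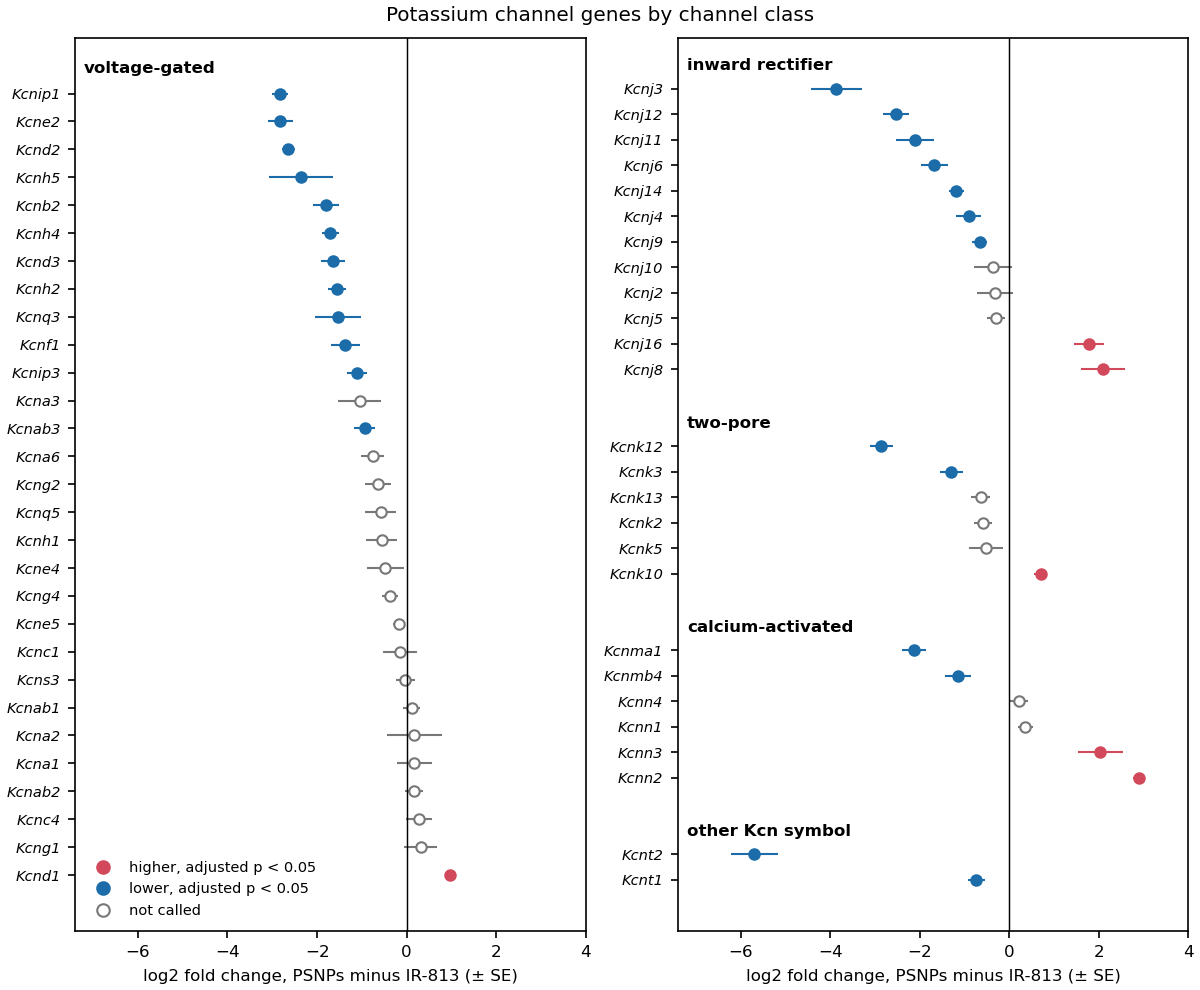
Log2 fold change (PSNPs minus IR-813, horizontal axis) of the tested Kcn genes by channel class, without a few that are not reported here, with bars of 1 standard error from edgeR's fit. Filled red points are genes called higher, filled blue points genes called lower, and open points genes not called. Kcnn2 lies farthest to the right (2.90) and Kcnt2 farthest to the left (−5.69).

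The voltage-gated class had 14 lower and 1 higher of 32 tested members, against 20.1% lower and 20.9% higher of all tested genes. The median log2 fold change of these members was −0.70. Among the 27 that passed the filter through both groups, 11 were lower and 1 higher (median −0.64). Summed over its 51 symbols, the class stood at 278, 267 and 252 CPM with IR-813 and at 173, 189 and 113 CPM with PSNPs. The clearest changes were in the Kv4 family, whose pore subunits carry the fast, transient A-type current and assemble with cytosolic KChIP proteins (Kcnip genes) and with the membrane proteins Dpp6 and Dpp10. Kcnd3 was the most abundant Kcn gene by counts with IR-813, at 81.8, 75.4 and 68.3 CPM, and stood at 27.4, 30.3 and 14.0 CPM with PSNPs. The groups did not overlap, and the log2 fold change was −1.65 ± 0.27 (estimate ± SE, adjusted p = 0.00358). Kcnd2 stood at 10.2, 10.1 and 11.7 CPM with IR-813 and at 1.65, 1.75 and 1.72 CPM with PSNPs. Its PSNPs libraries were close together and far below the IR-813 libraries (−2.64 ± 0.14, adjusted p = 0.000101). The Kcnd2 locus overlaps that of another protein-coding gene, Kcnd2l1, which is not among the counted symbols, so the Kcnd2 counts are uncertain to that extent. Kcnip1, which encodes a KChIP, fell from 6.58, 5.96 and 5.41 CPM to 0.781, 0.849 and 0.887 CPM (−2.83 ± 0.17, adjusted p = 0.000105). Its locus overlaps that of Kcnmb1, which had at most 2 counts in a library. Kcnip3, a KChIP that also binds DNA as a repressor, also fell (−1.11 ± 0.23).

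The third Kv4 pore gene went the other way. Kcnd1, given here after its values were seen, stood at 8.05, 8.99 and 9.58 CPM with IR-813 and at 17.6, 17.7 and 16.9 CPM with PSNPs, with no overlap (0.97 ± 0.11, adjusted p = 0.000976). It was the only voltage-gated member called higher when all libraries were used. The make-up of the family was therefore different in the 2 groups. Levels were set against each other between genes on the unlogged deposited values, which are scaled by a factor per gene that stands in for transcript length. On that scale Kcnd3 made up between 64.2% and 71.5% of the 3 Kv4 pore genes with IR-813 and between 29.6% and 45.4% with PSNPs, while Kcnd1 made up between 13.1% and 16.9% and between 50% and 64.3%.

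**Figure D2:**
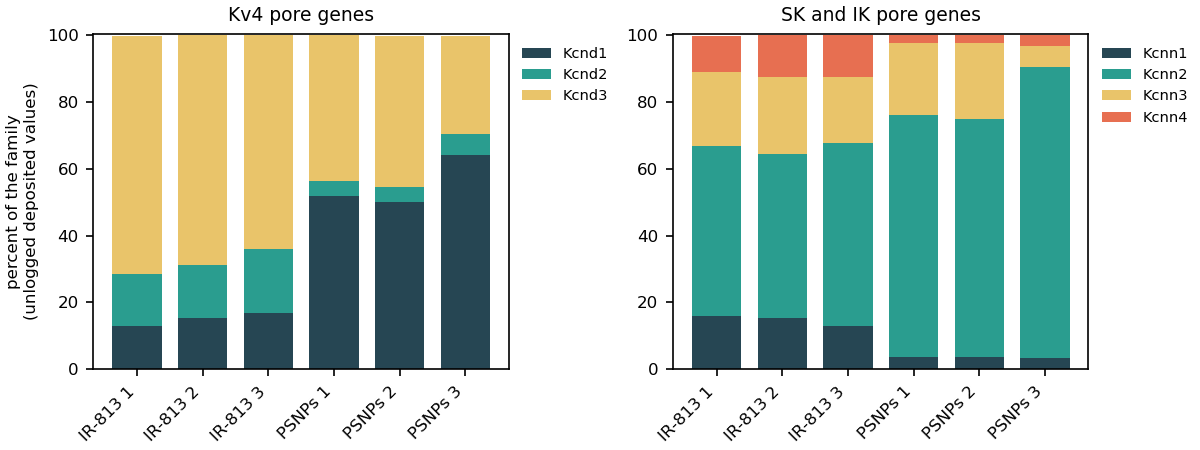
Share of each gene (percent, vertical axis) in the summed unlogged deposited values of the Kv4 pore genes (left) and the SK and IK pore genes (right), with 1 stacked bar per library. Kcnd1 takes at most 16.9% of the Kv4 sum in the IR-813 libraries and at least 50% in the PSNPs libraries, and Kcnn2 takes between 49.4% and 54.6% of the SK and IK sum with IR-813 and between 71.1% and 87.1% with PSNPs.

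The 2 Kv4 genes that fell are shown with the 250 bases before their RefSeq start site (build GRCr8, plus strand, 5′ to 3′), because they fell together while Kcnd1 rose. The Kcnd1 window is not shown, so the sequences give no contrast with it. Capitals mark letters that match, on either strand, a motif of general promoters or of regulated genes. The general ones were the GC box, spelled GGGCGG, the TATA box, spelled with the letters TATAAA, and the box named by its own letters CCAAT. The regulated ones were the cyclic AMP response element, spelled TGACGTCA, the E-box, with the letters CACGTG, and the AP-1 site, searched as TGANTCA with N for any base. The RE1 element, bound by the repressor REST, was searched as its left piece TTCAGCACC and as its right piece, which reads GGACAGC.
Kcnd2, chr4:50742235-50742484: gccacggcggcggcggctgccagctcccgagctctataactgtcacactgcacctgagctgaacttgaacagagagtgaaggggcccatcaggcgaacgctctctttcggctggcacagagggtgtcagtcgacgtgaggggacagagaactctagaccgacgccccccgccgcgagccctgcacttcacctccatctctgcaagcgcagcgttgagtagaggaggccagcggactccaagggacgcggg
Kcnd3, chr2:195626066-195626315: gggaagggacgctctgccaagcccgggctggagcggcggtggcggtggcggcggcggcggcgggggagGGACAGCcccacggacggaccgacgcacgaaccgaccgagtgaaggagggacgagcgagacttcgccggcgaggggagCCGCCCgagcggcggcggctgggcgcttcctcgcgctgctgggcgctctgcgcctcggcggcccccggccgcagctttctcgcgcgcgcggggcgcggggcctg
The Kcnd2 window held none of these letters and was 64.0% G or C, whereas the Kcnd3 window was 79.6% G or C and held 1 GC box and 1 right RE1 piece. Over the first listed start of the 62 Kcn symbols in the table of windows, the GC box was present in 48.4% of members and 32.4% of all 27457 symbols. The TATA box was present in 3.23% and 13.1%, the CCAAT box in 21.0% and 34.3%, the E-box and the AP-1 site in 3.23% each (5.79% and 6.36% of all), and the cyclic AMP element in 0 members (1.70% of all). The left RE1 piece was found in 1 member, the untested Kcnh6 (0.317% of all), and the right piece in 7 members or 11.3% (5.34% of all), of which 2 were called lower, 4 were not called and 1 was not tested. The median window held 60.2% G or C for members and 52.0% for all symbols. Matches of letters are a description and not evidence of binding.

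Other voltage-gated pores that fell include channels of the subthreshold and repolarising currents of neurons. Kcnq3, a Kv7 gene whose product contributes to the M-current that limits repetitive firing, fell from 7.99 ± 0.637 to 2.75 ± 1.84 CPM (SD, n = 3 each, −1.53 ± 0.51). Its relative Kcnq5 did not pass (20.4 ± 3.98 and 13.6 ± 5.92 CPM, −0.58 ± 0.34). Kcnh2, which encodes the ERG channel, stood at 5.50, 5.40 and 5.37 CPM with IR-813 and at 1.42, 1.80 and 2.35 CPM with PSNPs (−1.55 ± 0.20, adjusted p = 0.00135). Kcnh4, an ELK channel gene, fell from 7.74, 6.99 and 5.60 CPM to 2.25, 1.70 and 2.24 CPM (−1.71 ± 0.19, adjusted p = 0.000843). For neither did the groups overlap. Also lower were the delayed rectifier gene Kcnb2 (−1.80 ± 0.30) and the silent modifier gene Kcnf1 (−1.37 ± 0.32). Among the accessory genes, the Kv beta gene Kcnab3 was lower (−0.94 ± 0.24). The EAG channel gene Kcnh5 (−2.36 ± 0.72) and the single-span subunit gene Kcne2 (−2.82 ± 0.28) were also called lower, but passed the filter through IR-813 alone. Kcnq3 passed in 9 of 14 alternative fits (adjusted p from 0.000446 to 0.128) and was lost without any 1 library other than PSNPs replicate 3. Kcnab3 passed in 9 of 14 (0.0143 to 0.0786, lost without IR-813 replicate 2 or 3 or PSNPs replicate 1 or 2 and with DESeq2), Kcnh5 in 8 of 13 (0.0105 to 0.105, lost without any IR-813 library or PSNPs replicate 1 and with the replicate number as a block, and at −4.03 without PSNPs replicate 2), and Kcnf1 in 12 of 14 (0.000336 to 0.0554, lost without IR-813 replicate 1 or 2).

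The Kv1 family had no called member when all libraries were used, and its values turned on PSNPs replicate 3. Kcna3, the Kv1 gene of immune cells, stood at 4.56, 5.82 and 4.21 CPM with IR-813 and at 3.26, 3.13 and 0.626 CPM with PSNPs. All PSNPs libraries were lower, but the change of −1.05 ± 0.48 did not pass (adjusted p = 0.124), and it passed without PSNPs replicate 3 (−0.60, adjusted p = 0.0257, against 0.0257 to 0.292 over the 14 alternatives). Kcna2, an axonal channel gene, stood at 3.36, 3.40 and 3.38 CPM and at 4.96, 5.78 and 0.626 CPM, and Kcna1, its partner in axons, at 13.2, 9.87 and 9.39 CPM and at 13.8, 17.5 and 5.37 CPM. PSNPs replicates 1 and 2 were above and replicate 3 below all IR-813 libraries for both genes. Without replicate 3 both were higher, Kcna2 by 0.67 (adjusted p = 0.00508, range 0.00508 to 0.944) and Kcna1 by 0.53 (adjusted p = 0.0306, range 0.0306 to 0.918), which brought the voltage-gated members called higher to 3. Kcna6, a further Kv1 gene, was at −0.76 ± 0.26 (adjusted p = 0.0529, passing in 6 of 14 alternatives, range 0.0361 to 0.152, among them without PSNPs replicate 2 or 3). The other voltage-gated members described here that did not pass lay between −0.64 (Kcng2) and 0.31 (Kcng1), and Kcng2 passed only without PSNPs replicate 2 (−0.93, adjusted p = 0.0351, range 0.0351 to 0.256). Kcne5, the accessory gene with the highest per-length level, was among them at −0.18 ± 0.12 (from 14.6 ± 1.48 to 12.9 ± 0.774 CPM).

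Inward rectifiers had 7 lower and 2 higher of 12 tested members, against 20.1% lower and 20.9% higher of all tested genes. Their median was −0.78. Among the 8 that passed the filter through both groups, 4 were lower and 1 higher (median −0.51). Kcnj10, the main potassium-buffering channel gene of astrocytes and oligodendrocytes, was the most abundant inward rectifier, at 51.4, 50.4 and 61.2 CPM with IR-813 and at 51.5, 58.3 and 16.2 CPM with PSNPs. PSNPs replicates 1 and 2 lay within the IR-813 range and replicate 3 far below it. The estimate was −0.37 ± 0.42 (adjusted p = 0.502), and 0.02 without PSNPs replicate 3. Kcnj16, whose product joins that of Kcnj10 in glial channels, rose from 1.79, 1.07 and 0.601 CPM to 3.59, 4.09 and 4.33 CPM, with no overlap (1.78 ± 0.34, adjusted p = 0.00639). The 250 bases before its RefSeq start site (GRCr8, plus strand) are shown as a member that rose, with capitals as above.
Kcnj16, chr10:96517074-96517323: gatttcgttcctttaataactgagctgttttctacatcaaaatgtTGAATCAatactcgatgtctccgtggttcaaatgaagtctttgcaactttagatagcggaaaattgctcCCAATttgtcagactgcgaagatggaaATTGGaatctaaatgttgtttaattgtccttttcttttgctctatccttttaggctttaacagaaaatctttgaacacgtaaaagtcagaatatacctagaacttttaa
This window held 1 AP-1 site and 2 CCAAT boxes and was 33.6% G or C, and Kcnj16 and the untested Kcne1 were the only members of the 62 with the AP-1 letters.

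Of the strong inward rectifiers that hold the resting potential, Kcnj12, Kcnj14 and Kcnj4 were called lower and Kcnj2 was not called. The difference between Kcnj2 and the others was not tested. Kcnj12 fell from 9.04, 8.76 and 13.3 CPM to 2.44, 1.49 and 1.41 CPM (−2.53 ± 0.28, adjusted p = 0.000731), and Kcnj14 from 11.8, 12.9 and 9.44 CPM to 4.87, 5.41 and 4.80 CPM (−1.18 ± 0.16, adjusted p = 0.00158). Neither overlapped between groups. Kcnj4 also fell (−0.91 ± 0.28). Kcnj2, the form described in microglia, stood at 3.76, 4.75 and 3.98 CPM and at 4.27, 4.46 and 1.25 CPM. Only PSNPs replicate 3 was outside the IR-813 range, and the change of −0.32 ± 0.41 did not pass (adjusted p = 0.564), with 0.07 without that library. Of the G-protein-gated genes, which mediate slow synaptic inhibition, Kcnj9 (−0.66 ± 0.17) fell, while Kcnj5 did not pass (−0.29 ± 0.20). Kcnj3 had 37 counts over the IR-813 libraries and 2 over the PSNPs libraries, a ratio of 16.9 with an exact 95% interval from 4.36 to 145 that covers counting error only. Kcnj3 and Kcnj6 (−1.67 ± 0.30) were both called lower, but passed the filter through IR-813 alone. The locus of Kcnj9 overlaps that of Igsf8, which was far more abundant (88.9 ± 5.25 and 89.2 ± 11.4 CPM), so its reads are uncertain.

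The pores of ATP-sensitive channels, which tie the membrane to cell metabolism, were low. The level of Kcnj8 went from 0.289 ± 0.109 to 1.24 ± 0.652 CPM (2.09 ± 0.49) and that of Kcnj11 from 1.47 ± 0.415 to 0.341 ± 0.206 CPM (−2.11 ± 0.42). Both were called, but Kcnj8 passed the filter through PSNPs alone and Kcnj11 through IR-813 alone, so each was tested because of the group in which it was higher. Abcc8, the sulfonylurea receptor that pairs with the Kcnj11 product, fell from 1.22 ± 0.0712 to 0.250 ± 0.0839 CPM (−2.26 ± 0.29), and was likewise above the filter with IR-813 alone. Kcnj8 passed in 11 of 13 alternatives (adjusted p from 0.00303 to 0.0576, lost without IR-813 replicate 2 or 3). Across the class, Kcnj9 passed in 11 of 14 (0.0130 to 0.0874, lost without IR-813 replicate 2 or 3 or PSNPs replicate 1) and Kcnj4 in 4 of 13 (0.0292 to 0.126, kept among the fits that leave out a library only without IR-813 replicate 2).

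Of the two-pore channels, 6 members were tested, and 2 were lower and 1 higher (1 and 1 among the 4 that passed the filter through both groups). Over all tested genes the shares were 20.1% lower and 20.9% higher. Kcnk10, a TREK channel gene opened by stretch and fatty acids, was the most abundant and rose from 42.6, 37.6 and 42.9 CPM to 72.6, 74.2 and 53.6 CPM (0.70 ± 0.14, adjusted p = 0.00844), with no overlap. On the per-length scale it made up between 49.0% and 58.1% of the class with IR-813 and between 76.4% and 81.7% with PSNPs. Its relative Kcnk2 stood at 1.79, 1.96 and 2.08 CPM and at 1.38, 1.01 and 1.46 CPM, all lower, but did not pass (−0.59 ± 0.20, adjusted p = 0.0526). Kcnk3, an acid-sensitive TASK channel gene, fell from 15.6, 14.5 and 9.11 CPM to 5.42, 6.63 and 3.97 CPM (−1.29 ± 0.26, adjusted p = 0.00857). Its groups did not overlap, with IR-813 replicate 3 the nearest to the PSNPs libraries.

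The microglial two-pore gene Kcnk13, whose channel sets the microglial resting potential, stood at 4.65, 5.92 and 6.15 CPM with IR-813 and at 3.82, 2.60 and 4.28 CPM with PSNPs. All PSNPs libraries were lower, but the change of −0.64 ± 0.22 just missed the threshold (adjusted p = 0.0525). Its relative Kcnk12 stood at 2.47 ± 0.280 and 0.340 ± 0.0998 CPM and was called lower (−2.86 ± 0.26), but passed the filter through IR-813 alone. Without PSNPs replicate 3 both Kcnk13 (−0.78, adjusted p = 0.0149, range 0.0149 to 0.155) and Kcnk2 (−0.69, adjusted p = 0.0339, range 0.0339 to 0.338) passed, which made 4 lower members, and Kcnk5 (−0.53 ± 0.38), also tested through IR-813 alone, passed only without PSNPs replicate 1 (−1.06, adjusted p = 0.0484, range 0.0484 to 0.584). Kcnk1, a channel gene of astrocytes, had between 0 and 5 counts in a library and was not tested. Kcnk6, known from macrophages as a potassium exit in inflammasome activation, had 0 counts in all 6 libraries. If its reads could be counted, this allows a level of up to 0.134 to 0.159 CPM (3 counts per library). Its locus overlaps that of another protein-coding gene, LOC103689966, which is not among the counted symbols, so the 0 is uncertain.

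Calcium-activated channels, with 2 higher and 2 lower of 6 tested members, held the largest increase of any tested Kcn gene. Over all tested genes 20.9% were higher and 20.1% lower. Summed over its 9 symbols, the class stood at 31.0, 33.7 and 37.0 CPM with IR-813 and at 132, 127 and 111 CPM with PSNPs. Kcnn2, the SK2 small-conductance channel gene, stood at 10.5, 11.1 and 14.0 CPM with IR-813 and at 89.0, 84.6 and 92.3 CPM with PSNPs. All 3 PSNPs libraries were far above the IR-813 libraries and close to each other (2.90 ± 0.13, adjusted p = 7.01e-05), and the increase lay between 2.73 and 3.04 over 14 alternatives. Kcnn3, the SK3 gene, stood at 5.59, 6.43 and 6.24 CPM with IR-813 and at 32.8, 33.5 and 8.09 CPM with PSNPs. Here PSNPs replicate 3 lay just above the IR-813 libraries and far below the other 2, and the rise was 2.03 ± 0.50 (adjusted p = 0.0168). The other 2 genes of this family did not pass. Kcnn1 was at 0.36 ± 0.16 (adjusted p = 0.116), and Kcnn4, the intermediate-conductance channel gene of microglia and other immune cells, stood at 1.97, 2.52 and 2.96 CPM and at 2.76, 2.60 and 3.24 CPM, with overlapping groups (0.21 ± 0.20, adjusted p = 0.436). Kcnn3 is shown with the 250 bases before its RefSeq start site (GRCr8, plus strand) as the other SK gene that rose, with capitals as above.
Kcnn3, chr2:177234090-177234339: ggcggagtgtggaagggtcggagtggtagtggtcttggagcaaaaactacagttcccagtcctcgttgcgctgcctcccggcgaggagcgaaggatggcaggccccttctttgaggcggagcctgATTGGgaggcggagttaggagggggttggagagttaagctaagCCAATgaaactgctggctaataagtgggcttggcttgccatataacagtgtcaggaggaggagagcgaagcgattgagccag
This window held 2 CCAAT boxes and was 57.2% G or C. The Kcnn2 window is not shown.

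The genes of the large-conductance BK channel were lower, unlike Kcnn2 and Kcnn3. Its pore gene Kcnma1 stood at 5.73, 5.17 and 4.53 CPM with IR-813 and at 1.65, 1.06 and 0.783 CPM with PSNPs (−2.12 ± 0.27, adjusted p = 0.00126). Its neuronal accessory gene Kcnmb4 stood at 4.61, 5.64 and 6.24 CPM and at 1.79, 1.96 and 3.70 CPM (−1.15 ± 0.29, adjusted p = 0.0196). Neither gene overlapped between the groups. Kcnn3 passed in 11 of 14 alternatives (adjusted p from 2.93e-06 to 0.0672) and was lost without any 1 IR-813 library. Kcnmb4 passed in 10 of 14 (0.000480 to 0.0700, lost without IR-813 replicate 2 or 3 or PSNPs replicate 1 or 2), and Kcnn1 passed only without PSNPs replicate 3 (0.46, adjusted p = 0.0312, range 0.0312 to 0.269).

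**Figure D3:**
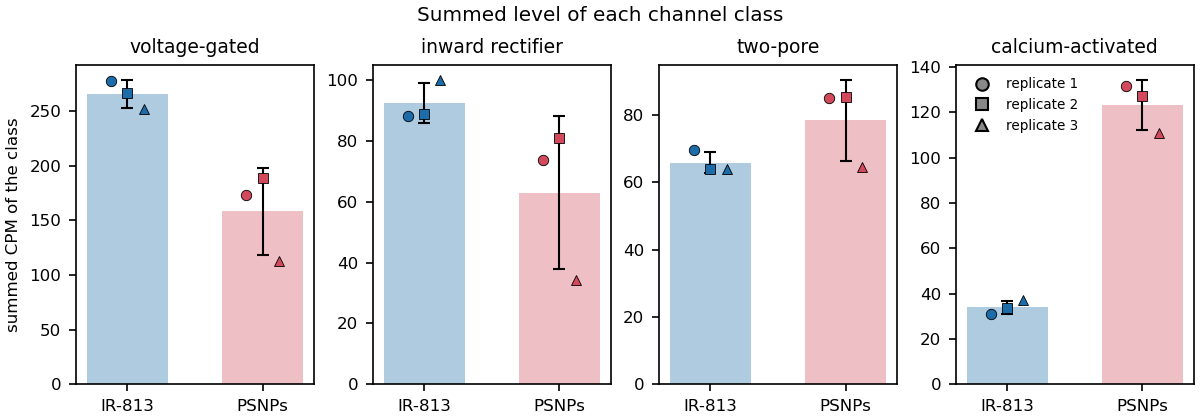
Summed CPM (vertical axis, from 0, a different scale in each panel) of the members of each channel class, with bars for the mean over 3 libraries, error bars of 1 SD and 1 symbol per library. The voltage-gated sum is lower in all PSNPs libraries (113 to 189 CPM against 252 to 278 CPM) and the calcium-activated sum is higher in all of them (111 to 132 CPM against 31.0 to 37.0 CPM).

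The sodium-activated channel genes, which carry a potassium current after sodium entry in neurons, were both lower. Kcnt1 fell from 41.6, 45.2 and 35.4 CPM to 26.5, 29.1 and 17.8 CPM, with no overlap (−0.74 ± 0.19, adjusted p = 0.0220). It was lost without IR-813 replicate 1 or 2 (passing in 12 of 14 alternatives, adjusted p from 0.00179 to 0.0846). Kcnt2 had 133 counts over the IR-813 libraries and 2 over the PSNPs libraries, a ratio of 60.7 with an exact 95% interval from 16.5 to 507 for counting error. It passed the filter through IR-813 alone. Its fitted change of −5.69 ± 0.53 was −8.40 without PSNPs replicate 1, the library that holds both counts.

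**Figure D4:**
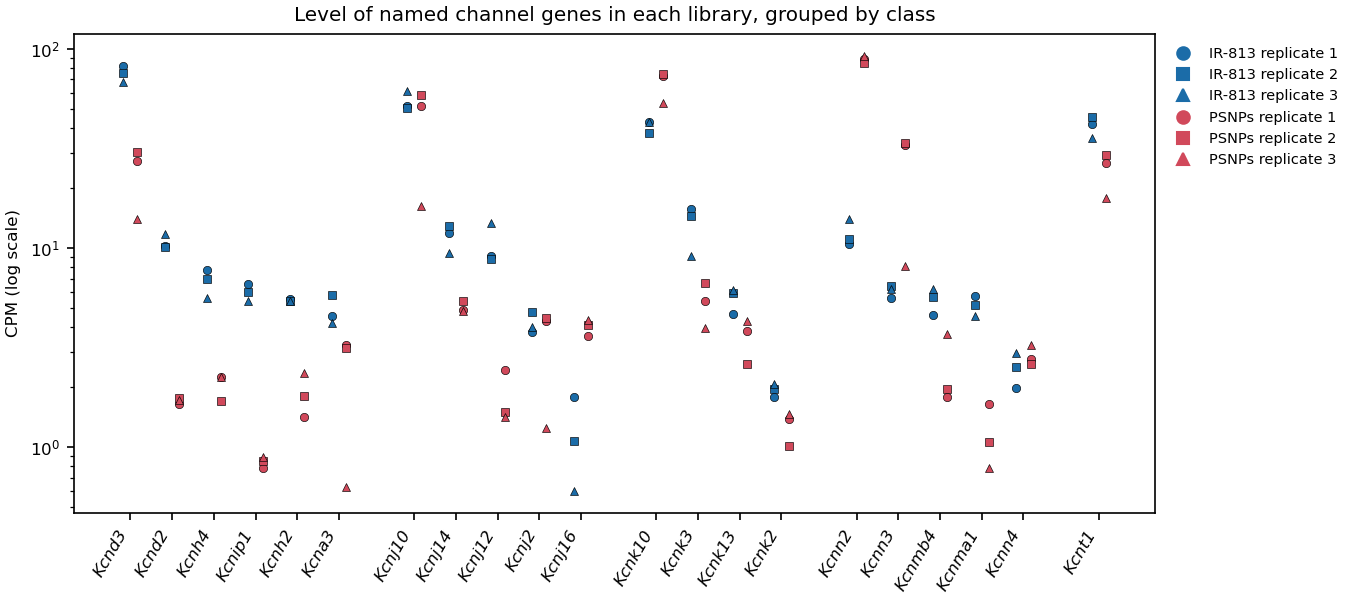
CPM (vertical axis, log scale) of the Kcn genes described by library under a fixed rule, grouped by class, with 1 point per library, blue for IR-813 and red for PSNPs, and the symbol giving the replicate. Kcnk1 and Kcnk6 have libraries at 0 and are left out. PSNPs replicate 3 (red triangle) lies well below the other PSNPs libraries for Kcnj10 (16.2 CPM), Kcna3 (0.626 CPM) and Kcnn3 (8.09 CPM), and with them for Kcnn2 and Kcnd2.

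The order of the members by level was different in the 2 groups. On the deposited log2 scale, which is per length, the highest members with IR-813 were Kcnj10 (5.40 ± 0.15, SD, n = 3), Kcne5 (5.05 ± 0.15), Kcnk10 (3.87 ± 0.099), Kcnt1 (3.58 ± 0.17) and Kcnd3 (3.57 ± 0.12). The libraries of Kcnj10 and Kcne5 did not overlap (5.30 to 5.57 and 4.89 to 5.18), whereas those of Kcnt1 and Kcnd3 did. With PSNPs the highest were Kcnn2 (5.53 ± 0.087), Kcne5 (4.89 ± 0.048), Kcnj10 (4.86 ± 0.94), Kcnk10 (4.53 ± 0.22) and Kcnn3 (3.29 ± 0.99). Kcnj10 spanned 3.78 to 5.50 there, so it could not be placed apart from Kcnn2, Kcne5 or Kcnk10. Kcnn3 spanned 2.14 to 3.88 with PSNPs. It could not be placed apart from the next members, Kcnab2 (2.92 to 3.38), Kcna1 (2.13 to 3.54) and Kcnt1 (2.57 to 3.14).

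Within the PSNPs group, replicate 3 was the lowest of the 3 libraries for 34 of 58 tested members (58.6%), against 44.1% of all tested genes. It lay at less than 1/2 of both others for 11 members (19%), against 7.13% of all tested genes, of which 8 were voltage-gated. These shares are descriptions of 1 library, and the labels give it the same description as the other 2.

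Of the 33 members under the filter, 4 had 0 counts in every library (Kcna10, Kcne1, Kcng3 and Kcnk6) and none of the others exceeded 15 counts in a library. The PSNPs libraries lay below all IR-813 libraries for 8 of them and above for 0. Among all 5197 symbols under the filter, of which 2858 were at 0 in every library, this was so for 5.23% and 2.77%. For Kcnk15 and Kcnv1 the nearest libraries of the 2 groups had equal counts and were apart only through scaling.

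Proteins that work with these channels but carry other symbols were read from lists written for this purpose. Of 9 tested auxiliary subunits, sulfonylurea receptors and regulators, 5 were lower and 1 higher, against 20.1% and 20.9% of all tested genes. Some of the lower ones, Abcc8 among them, were above the filter with IR-813 alone, so their direction is no independent finding. The Kv4 partner genes Dpp6 and Dpp10 fell from 22.6 ± 1.46 to 3.68 ± 1.32 CPM (−2.62 ± 0.24) and from 13.5 ± 0.328 to 1.60 ± 0.452 CPM (−3.07 ± 0.21), in the direction of Kcnd2, Kcnd3 and Kcnip1. HCN channels carry a mixed sodium and potassium current on hyperpolarisation. Both of their genes that are reported here, Hcn4 (−3.10 ± 0.21, above the filter with IR-813 alone) and Hcn3 (−1.36 ± 0.21), were lower. Of 10 tested sodium-potassium pump genes 3 were higher and 3 lower, against 20.9% and 20.1% of all tested genes. Of 11 tested genes of potassium-chloride cotransport and its kinases 5 were lower and 0 higher, with Wnk2 at −1.04 ± 0.16, the neuronal cotransporter gene Slc12a5 at −0.79 ± 0.13 and the kinase gene Stk39 at −0.42 ± 0.11. Of 4 genes of intracellular potassium channels, Tmem38a (0.67 ± 0.12) and Tmem38b (0.48 ± 0.12), which carry counter-current for calcium release, were higher, and the other 2 did not pass. The adjusted p of these named genes by edgeR lay between 0.000140 and 0.0194.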

How the data were processed

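RNA from 6 libraries was counted per gene. Polyadenylated RNA was selected, per the labels' protocols, and bcl2fastq and the build mRatBN7.2 were used, per the submitters' processing notes. Aligner, counter, annotation and strandedness were not given in the sources used here. Whole-number counts per gene symbol, as the authors deposited them, were used for all tests. They also deposited log2 values per library whose scaling is not stated. With a pseudocount of 1 removed, the latter were proportional to counts within 0.05 log2 units, after a gene and a library factor, for at least 99.2% of genes with at least 20 counts, and the gene factor served as a length proxy. Groups and replicate numbers come from the titles, and count columns were matched to samples through the per-library files.

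Counts were filtered with filterByExpr (11679 of 16876 symbols), scaled by TMM and put through edgeR 4.0.16 under R 4.3.3 (quasi-likelihood, treatment as the only term, Benjamini-Hochberg). CPM use TMM-scaled library sizes. The SE is the log2 fold change over the square root of F. Alternatives used DESeq2 1.42.0 and limma 3.58.1. The script was tested on simulated data. An exact test of 3 against 3 cannot go below 0.1 and was not used. At depths of 19166605 to 22553507 counts, 3 counts correspond to 0.134 to 0.159 CPM. Intervals cover counting error only, because counts were summed over the 3 libraries of each group, which leaves out the spread between libraries. PCR copies cannot be told from separate molecules here and were counted alike. Members overlapping another counted gene in RefSeq (9 of 91) have uncertain counts. The same holds for members overlapping a protein-coding gene that was not counted, such as Kcnd2, Kcnk2 and Kcnk6.

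Members, classes, lists and motifs were chosen with earlier results of these data known. Libraries are shown for up to 5 called members per class with the largest change and at least 5 CPM in either group, the most abundant member of each class, and a fixed set of glial or commonly studied channels. For each partner list up to 3 called genes with the smallest p are named. The results of some members and partners under these rules are not reported here, in the text or the figures, but they are part of all counts, sums and medians. Sequences are from RefSeq (GRCr8, a build other than that of the counts).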

Additional observations from a re-analysis of the deposited data

How the results depend on the processing

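All 33 called members kept their direction in 14 alternatives (where tested), and 22 passed in every one that tested them. Over all genes, scaling by library size alone made 40.5% and a length trend as an offset 61.4% of calls higher, in place of 50.9%. Library size alone gave 4 lower two-pore members in place of 2, and a filter of 1 CPM in 3 libraries gave 1 higher inward rectifier in place of 2. Leaving out each library in turn gave 1339 to 3591 higher and 1473 to 3478 lower genes over all, with the lowest counts without IR-813 replicate 2 (1416 and 1571 without replicate 1) and the highest without PSNPs replicate 3. It gave 1 to 3 higher and 1 to 2 lower calcium-activated members, 1 to 2 higher inward rectifiers, 1 to 3 higher voltage-gated and 2 to 4 lower two-pore members. DESeq2 lost Kcnab3 and Kcnj4 and added 3 members, among them Kcna6 and Kcnk13.

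Replicate numbers are shared between the groups. Deviations of same-numbered libraries correlated at −0.006, 0.014 and 0.121, within the range of differently numbered ones (−0.174 to 0.184). With 3 libraries per group, these values cannot show whether same-numbered libraries share a culture or batch. With the replicate block, 26 members were lower and 6 higher, Kcnh5 and Kcnj4 did not pass, Kcna6 did, and Kcna2 was at −0.09. On the deposited log2 values the pseudocount of 1 understates low genes. The median over members was −0.32, 20 called members had a change smaller by over 1.5-fold, Kcnj4 and Kcnj6 were not called, and Kcna2 was at −0.03.

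Other sign changes were in members that were not called. With the length trend, Kcnc1 was at 0.12 and Kcns3 at 0.06. Over the fits that leave out 1 library, Kcns3 ranged from −0.20 to 0.12, Kcna2 from −0.25 to 0.67 (−0.08 without PSNPs replicate 1), Kcna1 from −0.17 to 0.53, Kcnab1 from −0.11 to 0.22, Kcnc1 from −0.40 to 0.21, Kcnj10 from −0.68 to 0.02 and Kcnj2 from −0.57 to 0.07. The cause was not tested. Members under about 1 CPM rest on few counts and are the least certain.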
